A study of Mus musculus with 6 samples.

Results

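The erythroid microRNAs miR-451 and miR-486 were followed in whole aortas of atherosclerosis-prone mice. The assays were chosen by name, as those called miR-451 and miR-486 in the deposited tables, and are 2 of 517 microRNA assays. The tested animals were 3 male mice with the genotype LysM-Cre/Dicer flox/flox/Apoe-/- (Dicer_KO aortas), and they were set against 3 male littermates with the genotype LysM-Cre/Dicer wt/wt/Apoe-/- (Dicer_WT aortas). All 6 mice lacked Apoe, carried Cre driven from the lysozyme M locus, and ate a fat-rich diet with 21% crude fat for 12 weeks from 6 to 8 weeks of age. Aortas were perfused in place with an RNA preservative before they were taken, and each microRNA was read once per aorta by TaqMan PCR after preamplification, as a threshold cycle (Ct), where 1 cycle less means about 2 times the RNA. Per the labels these are biological replicates, and an aorta was counted as 1 mouse.

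MicroRNAs are short RNAs that guide Argonaute proteins to messenger RNAs. Most are cut from a long hairpin first by Drosha in the nucleus and then by Dicer in the cytoplasm. miR-451 is the known exception: the hairpin that Drosha leaves is too short for Dicer, and the slicing activity of Argonaute 2 matures it. It is made in red cell precursors, is among the most abundant microRNAs of red cells, and is used in blood samples as a sign of red cells or haemolysis. miR-486 needs Dicer; it is abundant in red cells and also in skeletal and heart muscle, and its gene lies inside that of the membrane skeleton protein ankyrin 1. The lysozyme M locus drives Cre in macrophages, monocytes and neutrophils. The arrays hold no assay for Dicer mRNA, so neither the genotype nor the cells that lost Dicer could be checked.

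The mature RNA and the hairpin of miR-451 are shown because their layout is what sets this microRNA apart from Dicer products. Of the 2 microRNAs, 1 had an entry in the RefSeq sequence table used here (GRCm38.p6). In the mature sequence the capitals mark the seed (bases 2 to 8, which pair with targets), and in the hairpin they mark the mature RNA. The hairpin lies at chr11:78073170-78073241 and the mature RNA at chr11:78073186-78073207, both on the plus strand.
miR-451a: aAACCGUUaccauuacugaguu
mir-451a hairpin: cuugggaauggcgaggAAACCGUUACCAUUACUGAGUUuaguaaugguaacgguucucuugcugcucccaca

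Folded with RNAfold, the 72-base hairpin had 30 base pairs and 1 terminal loop of 4 bases, at positions 35 to 38 counted from its 5′ end. The mature miR-451a took positions 17 to 38, so it ran up the 5′ arm and over the whole loop, with 17 of its 22 bases paired to the opposite arm. Of 1635 mature microRNAs of the table that lie in a folded hairpin, 11 (0.673%) covered a terminal loop in this way. No other of the 1679 mature microRNA names in the table had the seed of miR-451a. The hairpin of miR-144, another erythroid microRNA, ends 99 bases before that of miR-451a on the same strand of the table. miR-144 was not analysed here. The miR-486 hairpin gene lies within Ank1 in the same annotation.

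miR-451 gave a strong signal in every aorta. Its Ct was 19.964, 19.932 and 20.42 in the Dicer_KO aortas, against 20.098, 21.134 and 22.478 in the Dicer_WT aortas. Among 517 assays this Ct ranked 45th, 39th and 43rd from the lowest in the Dicer_KO aortas, against 60th, 78th and 97th in the Dicer_WT aortas. Such ranks are approximate, since assays differ in efficiency and preamplification. On raw Ct the groups overlapped, because the Dicer_KO replicate 3 value lay above that of Dicer_WT replicate 1.

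On the authors' scale each value is a relative quantity, a linear ratio to reference small RNAs of the same aorta (U6, snoRNA135 and snoRNA202), scaled to a Dicer_WT geometric mean of 1. miR-451 stood at 2.50, 3.12 and 2.15 in the Dicer_KO aortas, against 1.91, 1.14 and 0.461 in the Dicer_WT aortas. All 3 Dicer_KO aortas lay above all 3 Dicer_WT aortas, and the lowest value was that of Dicer_WT replicate 3. Non-overlap of this kind, with Dicer_KO higher, held for 9 of 377 assays tested (2.39%), and non-overlap with Dicer_KO lower for 123 (32.6%). The mean log2 relative quantity of miR-451 was 1.36 ± 0.270 in Dicer_KO aortas (SD, n = 3). In Dicer_WT aortas, where the scale sets the mean to 0, the SD was 1.04 (n = 3).

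The log2 fold change of miR-451, Dicer_KO over Dicer_WT, was 1.36 ± 0.532 (SE, n = 3 each), with a 95% interval of 0.047 to 2.67. In fold terms this was 2.56 times, with an interval of 1.03 to 6.35. The unadjusted limma p was 0.0444 and the adjusted p, over all assays tested, was 0.176, so miR-451 did not pass the threshold of 0.05. At that threshold 7 of the 377 assays were called lower (1.86%) and 0 higher (0%), and at an unadjusted p under 0.05 there were 92 lower (24.4%) and 9 higher (2.39%). An exact two-sided permutation test of the miR-451 values gave p = 0.1, the smallest that 3 aortas against 3 can give. The fold change ranked 10th from the highest of 377 assays, whose median was -0.42. In aortas read as whole tissue, a change in the number of cells that carry an RNA and a change in the amount per cell cannot be told apart.

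miR-486 was read at higher Ct, with 27.41, 26.713 and 27.3 in the Dicer_KO aortas, against 27.064, 28.003 and 29.035 in the Dicer_WT aortas. Its relative quantities were 1.60, 3.16 and 2.03 in the Dicer_KO aortas, against 1.70, 1.08 and 0.544 in the Dicer_WT aortas. The groups overlapped, since Dicer_KO replicate 1 lay just below Dicer_WT replicate 1, and Dicer_WT replicate 3 was again the lowest. On the log2 scale the mean was 1.12 ± 0.499 in Dicer_KO aortas, and the SD was 0.826 in Dicer_WT aortas (n = 3 each). The log2 fold change was 1.12 ± 0.484 (SE), a fold of 2.17 with a 95% interval of 0.951 to 4.95. It did not pass the threshold (limma adjusted p = 0.202 and unadjusted p = 0.0611), and the exact permutation p was 0.2 (two-sided, n = 3 each). It ranked 14th from the highest of 377 assays.

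**Figure D1:**
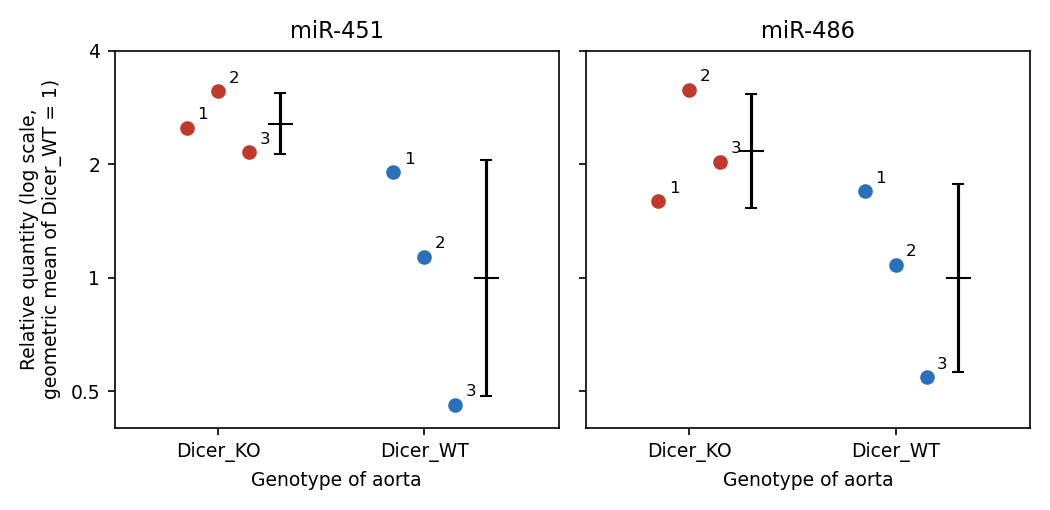
Relative quantity of miR-451 (left) and miR-486 (right) in each Dicer_KO and Dicer_WT aorta on a log axis, with the geometric mean of Dicer_WT set to 1; points are aortas with their replicate number, and bars are the mean ± SD of the log2 values (n = 3). The Dicer_KO values of miR-451, from 2.15 to 3.12, all lie above the Dicer_WT values, while those of miR-486 overlap at replicate 1 of both genotypes.

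**Figure D2:**
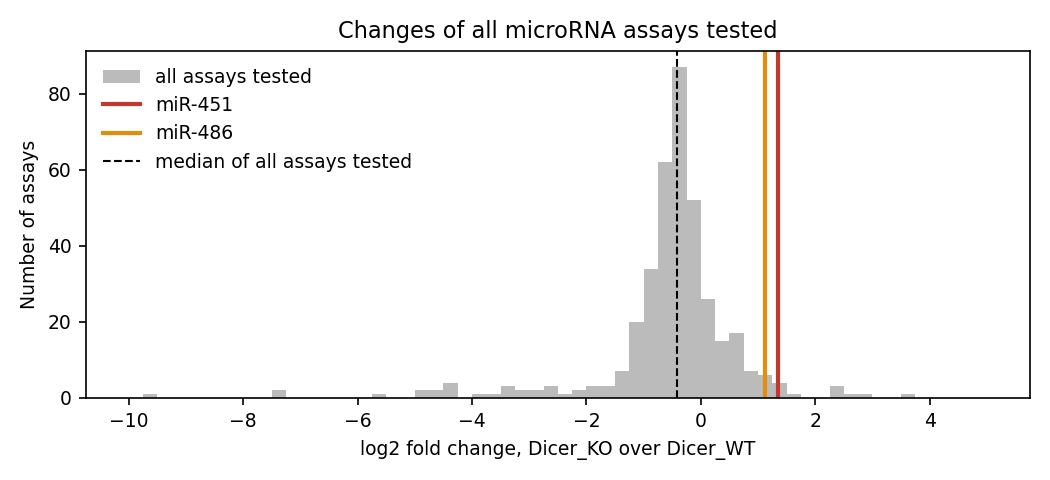
Histogram of the log2 fold change, Dicer_KO over Dicer_WT, of the 377 microRNA assays tested, in bins of 0.25. miR-451 at 1.36 and miR-486 at 1.12 lie in the right tail, and the median of all assays lies at -0.42.

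The authors' deposited table of fold changes gives 2.22 for miR-451 and 2.04 for miR-486, Dicer_KO over Dicer_WT. These equal the ratio of arithmetic means of the relative quantities, which weights high aortas more than the geometric means behind the 2.56 and 2.17 given above.

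Since miR-451 matures without Dicer and miR-486 needs it, the difference between their changes was tested. Both were read on the same card, so the reference RNAs cancel in the gap between them. The Ct of miR-486 minus that of miR-451 was 7.45, 6.78 and 6.88 cycles in the Dicer_KO aortas, against 6.97, 6.87 and 6.56 cycles in the Dicer_WT aortas. The gap was widest in Dicer_KO replicate 1, while the other Dicer_KO aortas lay within the Dicer_WT range. The mean gap was 7.04 ± 0.359 cycles in Dicer_KO aortas and 6.80 ± 0.214 cycles in Dicer_WT aortas (SD, n = 3 each). The log2 change of miR-451 exceeded that of miR-486 by 0.24 ± 0.241 (SE), with a 95% interval of -0.43 to 0.91 (exact permutation p = 0.5, two-sided, n = 3 each). A different response of the Dicer-independent and the Dicer-dependent microRNA was therefore not detected with 3 aortas a group. The interval does not show that both responded alike. Such a difference would need cells that make miR-486 to have lost Dicer, which could not be checked. Cre is driven in macrophages, monocytes and neutrophils, so the gap could not decide on Dicer dependence. Without Dicer_KO replicate 1 the difference was 0.033, without Dicer_WT replicate 3 it was 0.12, and without Dicer_KO replicate 2 it was 0.37.

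The spread of both microRNAs was uneven between the genotypes. Between the lowest and the highest aorta, miR-451 varied 1.45-fold in Dicer_KO and 4.14-fold in Dicer_WT aortas, and miR-486 varied 1.98-fold in Dicer_KO and 3.12-fold in Dicer_WT aortas. Among the 330 assays detected in all 6 aortas, the Dicer_KO SD of miR-451 ranked 209th from the highest and its Dicer_WT SD 14th. For miR-486 the ranks were 86th in Dicer_KO and 18th in Dicer_WT aortas. The median SD of these assays was 0.329 in Dicer_KO and 0.240 in Dicer_WT aortas on the log2 scale. Both microRNAs thus varied far more than the usual assay among the Dicer_WT littermates, and close to it (miR-451) or somewhat above it (miR-486) among the Dicer_KO aortas.

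The size of both changes rested on Dicer_WT replicate 3. That aorta held the lowest value of the 6 for both microRNAs, and for 39 of the 330 assays detected throughout (11.8%). That share is no like comparison, since 295 of 377 assays tested (78.2%) had a log2 fold change below 0. Among the Dicer_WT aortas replicate 3 also had the lowest median of all assays tested, -0.17 against 0.11 and 0.083. Without Dicer_WT replicate 3, the log2 fold change was 0.80 for miR-451 (limma adjusted p = 0.177) and 0.68 for miR-486 (adjusted p = 0.264). Without Dicer_WT replicate 1, the highest of its group, the values were 1.82 (adjusted p = 0.243) and 1.50 (adjusted p = 0.249). Since miR-451 did not overlap between the genotypes over all 6 aortas, leaving out 1 aorta could not make it overlap. miR-486 overlapped only through replicate 1 of both genotypes, so leaving out either of those aortas had to end its overlap. Neither outcome is a separate result.

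The direction of both changes did not follow the choice of reference RNA. Relative to U87 and Y1, small RNAs made without Dicer that the authors did not use as references, the log2 fold change was 1.87 for miR-451 and 1.63 for miR-486. Relative to U6 alone it was 1.19 and 0.95, and on Ct without normalization 1.13 and 0.89, for miR-451 and miR-486 in that order. On the card of both microRNAs, mean Ct in Dicer_KO exceeded that in Dicer_WT by 0.70 for U87 and 0.78 for Y1, against 0.060 for U6. Whether the genotypes overlapped did follow the scaling. miR-451 overlapped relative to U6 alone, where miR-486 did not. Neither overlapped with mean centring, with quantile normalization or relative to U87 and Y1. The share of all assays without overlap was counted on the authors' scale only, so these outcomes have no share to be set against. The median of all assays was -0.13 with mean centring and -0.010 after quantile normalization, against -0.42 on the authors' scale. The median of all assays moved from -0.64 without normalization to 0.16 relative to U87 and Y1. Set against that median, miR-451 lay 1.77 above it on the authors' scale and 1.71 to 1.85 above it under the 5 other scalings, and miR-486 lay 1.53 above it and 1.47 to 1.61 above it. Except for quantile normalization, these scalings shift all assays of a card alike within an aorta. The distance from the median was therefore nearly fixed beforehand, and its narrow range is no separate result. Taken as the distance from the median assay of the same aorta, miR-451 stood at 1.76 ± 0.256 in Dicer_KO and -0.0075 ± 0.894 in Dicer_WT aortas, and miR-486 at 1.52 ± 0.593 in Dicer_KO and -0.0075 ± 0.685 in Dicer_WT aortas (SD, n = 3 each). On this measure all 3 Dicer_KO aortas lay above every Dicer_WT aorta for both microRNAs (exact permutation p = 0.1 each, the smallest possible). The median taken off ran from -0.61 to -0.21 in Dicer_KO and from -0.17 to 0.11 in Dicer_WT aortas. The share of all assays that did not overlap on this measure was not counted. Neither microRNA passed the adjusted threshold under any of 18 alternative settings, where the adjusted p ranged from 0.108 to 0.330 for miR-451 and from 0.126 to 0.383 for miR-486.

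**Figure D3:**
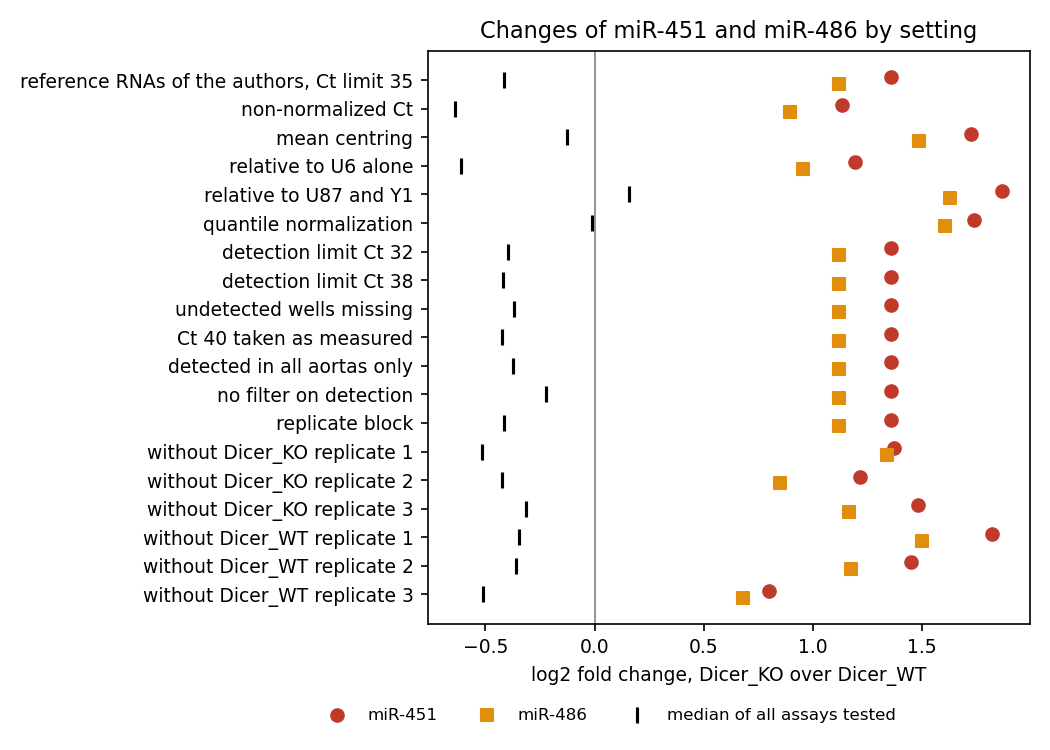
Log2 fold change, Dicer_KO over Dicer_WT, of miR-451 (circles), miR-486 (squares) and the median of all assays tested (ticks) under the authors' scaling and 18 alternatives. Both microRNAs lie above 0 in every row, lowest without Dicer_WT replicate 3 (0.80 and 0.68).

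miR-451 and miR-486 followed each other across the aortas, with a Pearson r of 0.962 over the 6 aortas and of 0.921 for their deviations from the mean of their genotype. The points share the aorta and the reference RNAs, and with 6 of them r is a description. By r over the 6 aortas, the 5 of 329 assays most like miR-451 were miR-122 (0.990), miR-486 (0.962), miR-25 (0.945), miR-192 (0.905) and miR-15b (0.896), while the median over the 329 was -0.240. The 5 most like miR-486 were miR-451 (0.962), miR-122 (0.960), miR-25 (0.953), miR-192 (0.944) and miR-194 (0.929), with a median of -0.306. miR-122 is the main microRNA of hepatocytes, miR-192 and miR-194 are known from liver and gut, and miR-25 and miR-15b are found in many cell types, red cells among them. In all 5, as in both erythroid microRNAs, Dicer_WT replicate 3 was the lowest and Dicer_KO replicate 2 the highest of the 6 aortas. The 5 were chosen by r over these same aortas, so the shared extremes are no separate result.

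The mature sequences of 4 of these neighbours, miR-25, miR-15b, miR-192 and miR-194, show whether they share a seed with miR-451a. The sequence of miR-122, the closest neighbour, is not shown and its seed was not compared. The assay names carry no arm, and the arm shown is the main one of each hairpin. miR-25-3p lies at chr5:138165332-138165353 (minus strand), miR-15b-5p at chr3:69009775-69009796 (plus strand), miR-192-5p at chr19:6264857-6264877 (plus strand), and a copy of miR-194-5p at chr1:185313325-185313346 (plus strand).
miR-25-3p: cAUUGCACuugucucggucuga
miR-15b-5p: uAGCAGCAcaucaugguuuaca
miR-192-5p: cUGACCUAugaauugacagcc
miR-194-5p: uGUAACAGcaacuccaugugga

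The seeds of these 4, in capitals, differ from that of miR-451a and from each other. In the fold of their own hairpins, miR-25-3p, miR-15b-5p and miR-192-5p left the terminal loop uncovered.

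The values of miR-122, chosen for the highest r with miR-451 over these same aortas, are given as a description. Its log2 relative quantity was 1.28, 1.81 and 1.00 in the Dicer_KO aortas, against 1.22, 0.22 and -1.44 in the Dicer_WT aortas. With the Dicer_WT mean at 0, miR-451 minus miR-122 was 0.045, -0.17 and 0.11 in the Dicer_KO aortas, against -0.29, -0.03 and 0.32 in the Dicer_WT aortas, a range of 0.61 over the 6 aortas. The SD of this signed difference was 0.144 in Dicer_KO and 0.308 in Dicer_WT aortas (n = 3 each). Within Dicer_WT the difference was negative (-0.29) in replicate 1, where miR-451 was highest. It was positive (0.32) in replicate 3, where miR-451 was lowest, and nearest 0 in replicate 2. The log2 fold change of miR-122 was 1.36 ± 0.687 (SE, limma adjusted p = 0.228), and its groups overlapped. miR-192 was at 0.64 (adjusted p = 0.265) and miR-194 at 0.32 (adjusted p = 0.452). The 3 liver assays were all above 0, from 0.32 to 1.36 with a median of 0.64, and 0 passed the threshold. Like miR-451 and miR-486 they rested on single aortas: without Dicer_WT replicate 3, miR-122 was at 0.64, miR-192 at 0.41 and miR-194 at 0.073, and without Dicer_KO replicate 2, miR-192 was at 0.37 and miR-194 at 0.13. Without Dicer_WT replicate 1, miR-194 was at 0.52. Their median level ranged from 0.30 to 1.18 in Dicer_KO and from -0.49 to 0.57 in Dicer_WT aortas. The part of liver or blood microRNAs carried with the vessel in the values of miR-451 and miR-486 was not tested.

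The other listed microRNAs of red cells did not share the size of the change. Whether they follow red cell content in a whole aorta was not tested. Of the 10 listed, miR-144 was not analysed here and miR-363 was too rarely detected to be tested. Of the 8 tested, 3 had a log2 fold change above 0 and 5 below, 0 passed in either direction, and the range was -0.86 to 0.21 with a median of -0.26 (-0.14 without Dicer_KO replicate 3), against -0.42 over all assays. The median level of the 8 ranged from -0.47 to -0.075 in Dicer_KO and from -0.27 to 0.21 in Dicer_WT aortas. miR-16, abundant in red cells and in most other cells, was at -0.43 (adjusted p = 0.229), and miR-15b and miR-25, each at 0.21, had adjusted p-values of 0.519 and 0.464. Without Dicer_WT replicate 3, miR-25 was at 0.061 and miR-15b at 0.010. Set against the median of this list in the same aorta, miR-451 stood at 1.59 ± 0.124 in Dicer_KO and 0.0044 ± 0.793 in Dicer_WT aortas, and miR-486 at 1.35 ± 0.474 in Dicer_KO and 0.0044 ± 0.583 in Dicer_WT aortas (SD, n = 3 each). All 3 Dicer_KO aortas lay above every Dicer_WT aorta for both (exact permutation p = 0.1 each, the smallest possible). The share of all assays without overlap was not counted against this list either.

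**Figure D4:**
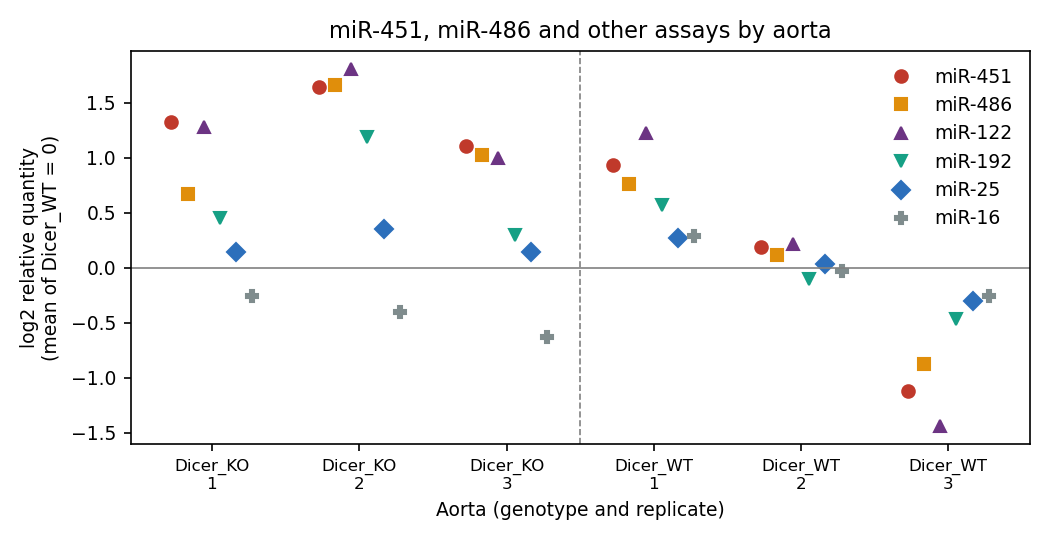
Log2 relative quantity, with the mean of Dicer_WT at 0, of miR-451, miR-486, the liver-enriched miR-122 and miR-192, and the more widely expressed miR-25 and miR-16 in each aorta, Dicer_KO left of the dashed line. The signed difference of miR-451 minus miR-122 spans 0.61 over all aortas. miR-25 moves the same way over a smaller range, and miR-16 is below 0 in all 3 Dicer_KO aortas.

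Since miR-486 is also a muscle microRNA, the striated muscle assays were set beside it. Of 5 tested, 3 were below 0 and 0 passed, with a range of -0.32 to 0.93 and a median of -0.07. The highest, miR-208, which had a well at Ct 40 in Dicer_WT replicate 2, set the upper end. The median turned to 0.28 with mean centring, 0.44 relative to U87 and Y1, 0.29 after quantile normalization, 0.087 with no filter on detection and 0.17 without Dicer_KO replicate 2, and was -0.35 without Dicer_KO replicate 3. The muscle microRNAs miR-1 and miR-133a were at -0.07 (adjusted p = 0.867) and -0.32 (adjusted p = 0.414). In Dicer_KO replicate 2, which held the highest miR-486 value, both had their lowest value of the 6 aortas, at -0.54 for miR-1 and -0.75 for miR-133a. In Dicer_KO replicate 3, where miR-486 stood at 1.02, both had their highest value, at 0.50 for miR-1 and 0.21 for miR-133a. The part of muscle in the miR-486 values was not tested.

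Among the other cells that a perfused aorta can hold, the 9 leukocyte assays ranged from -1.99 to 0.53 with a median of -0.80. Of these, 8 were below 0 and 5 lower without overlap, with 0 called, where over all assays tested 295 of 377 (78.2%) were below 0 and 32.6% lower without overlap. The leukocyte median was -0.40 without Dicer_WT replicate 2 and -0.29 relative to U87 and Y1. The median level of the list ranged from -1.04 to -0.49 in Dicer_KO and from -0.22 to 0.22 in Dicer_WT aortas. The 8 platelet assays ranged from -1.66 to 0.72, with 7 below 0, 3 lower without overlap and 0 called. Their median of -0.46 lay near that of all assays (-0.42) and turned to 0.053 relative to U87 and Y1. Their levels ran from -0.65 to -0.30 in Dicer_KO and from -0.14 to 0.086 in Dicer_WT aortas. Although the labels name macrophage beside aorta, the values were read as those of the whole vessel. Smooth muscle miR-143 and miR-145, the defining microRNAs of the vessel wall, were read at Ct 11.5 to 16.2 in all aortas. Both were lower without overlap and 0 of these 2 were called, with a median of -0.59 that shrank to -0.22 with mean centring, -0.03 after quantile normalization and -0.08 relative to U87 and Y1. The 2 assays of the endothelial miR-126 hairpin had a median of 0.23 and overlapping groups, and 0 were called. That median was 0.46 without Dicer_KO replicate 1, 0.051 without Dicer_KO replicate 2, 0.11 without Dicer_WT replicate 1 and 0.0053 on Ct without normalization.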

How the data were processed

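The first table deposited by the authors holds Ct values, 40 where no product formed (a decimal comma in 5 cells was read as a point); cycler software and threshold: not given in the sources used here. Per the labels, RNA was reverse-transcribed and preamplified with TaqMan kits. A second deposited table holds the authors' relative quantity, a linear ratio. Its log2 equalled the mean reference Ct minus the assay's Ct on each of 2 cards, centred on the Dicer_WT mean of each assay (largest log2 difference 5.22e-06). The third holds the authors' deposited fold changes, a linear ratio.

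Wells at Ct 35 or above were undetected and set to 35. The test took assays with 2 or more detected aortas in either group (377 of 517) and ran on log2 values with limma 3.58.1 in R 4.3.3 (two-sided, Benjamini-Hochberg, threshold 0.05), and single values by exact permutation. Steps were tested on simulated data. No depth applies; the number of aortas limits the precision. Hairpins were folded with RNAfold 2.7.2. Figures were drawn with matplotlib 3.10.9. The labels and files name no date or lot that could serve as a batch.

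By rule, the assays named were miR-451, miR-486, the 5 most like each by Pearson r, the reference and control RNAs, and at most the first 2 tested of each of 7 marker lists, whose other members are given as counts, range and median. miR-144 and miR-363 were named as listed but not tested. Outside the rule, miR-208 was named as the assay that set the upper end of its list. Members and lists were chosen with earlier results of these data known. Alternatives covered scaling, detection, filtering, single aortas and the replicate number as a block. Whether that number pairs the aortas is not known. Same-numbered deviations correlated at 0.179, -0.101 and 0.152, and differently numbered ones at -0.26 to 0.18, which cannot settle it.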

Additional observations from a re-analysis of the deposited data

How the results depend on the processing

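The log2 fold changes of miR-451 and miR-486 kept their sign and stayed short of the threshold in all 18 alternatives, from 0.80 to 1.87 and from 0.68 to 1.63. Leaving out 1 aorta at a time gave 0.80 to 1.82 for miR-451, 0.68 to 1.50 for miR-486 and 0.033 to 0.37 for the difference between their changes, which quantile normalization put at 0.14 and which had no reachable threshold. With the replicate number as a block, miR-451 stayed at 1.36 (limma adjusted p = 0.131) and miR-486 at 1.12 (adjusted p = 0.188), and 7 assays were called lower and 0 higher, as without it. Over all assays tested, the count called lower was 7, and it was 24 at a Ct limit of 32, 16 with undetected wells missing, 13 with Ct 40 taken as measured and 20 over assays detected in all aortas. The count called higher was 0, and it was 2 at a Ct limit of 32, 1 with undetected wells missing, 2 over assays detected in all aortas, 1 with mean centring, 2 relative to U87 and Y1 and 2 after quantile normalization. Leaving out 1 aorta gave 5 to 55 lower and 0 to 9 higher, the extremes of 55 and 9 coming without Dicer_KO replicate 1 and 5 without Dicer_WT replicate 1. The cause was not tested. Small values turned sign: miR-25 to -0.012 and miR-15b to -0.013 on Ct without normalization, miR-16 to 0.082 relative to U87 and Y1, miR-133a to 0.043 with mean centring and 0.19 relative to U87 and Y1, and miR-1 to 0.30 with mean centring, 0.44 relative to U87 and Y1, 0.29 after quantile normalization and 0.17 without Dicer_KO replicate 2 (from -0.35 to 0.17 leaving out 1 aorta). The red cell median turned to 0.11 with mean centring, 0.25 relative to U87 and Y1 and 0.16 after quantile normalization.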
